A study of Mus musculus with 12 samples.

Results

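The genes described here are 10 genes of the NRF2 antioxidant response, chosen by name: the regulators Nfe2l2 and Keap1 and the response genes Nqo1, Hmox1, Gclc, Gclm, Txnrd1, Srxn1, Slc7a11 and Gpx2. Each was measured by a probe set carrying that gene symbol alone, and where a gene had several such probe sets the brightest over all 12 arrays was used. All 10 were measured, out of 22180 genes with such a probe set. RNA was hybridised to Affymetrix arrays, 3 arrays for each of 4 kinds of mouse pancreatic cells. Tumor cells were low-passage cells grown in standard medium. ADM samples were acinar cells in acinar-to-ductal metaplasia, kept for 7 days in a collagen gel and treated with 50 ng/ml Tgf-alpha. Embryonic and adult acinar cells were isolated by digestion and taken for RNA without culture. All 4 groups carry the strain label C57Bl6/J wildtype, including the tumor cells, for which no driver allele is given. The sample labels of the 3 tumor arrays carry a common number, and the labels do not say whether the replicates of any group were separate animals, lines or cultures. The p-values therefore measure only the spread between these arrays, which may be technical. Ages are not given in the labels.

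NRF2, the protein of Nfe2l2, is a basic leucine zipper transcription factor that is normally bound by KEAP1, an adaptor of the CUL3 ubiquitin ligase, and degraded. When electrophiles or oxidants modify cysteines of KEAP1, NRF2 accumulates, pairs with small MAF proteins and binds antioxidant response elements in genes for glutathione synthesis, thioredoxin reduction, quinone reduction and heme breakdown. Much of this control acts on the protein, so the level of the Nfe2l2 transcript is no measure of NRF2 activity.

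The core of the antioxidant response element, TGACNNNGC, was searched on both strands of the RefSeq promoter windows (GRCm38.p6), which run from 250 bases before to 50 bases after an annotated gene start. Of the 10 members, all but Hmox1 and Gclc were matched in the promoter table, with 10 windows in all, since Txnrd1 has several starts. The core was found in windows of 4 members, Nfe2l2, Gclm, Txnrd1 and Srxn1, and in 13.99% of the 27025 genes of the table (12.39% of 32851 windows). The AP-1 element TGACTCA, which can overlap the core when it is followed by GC, was found in the Srxn1 window and in 5.20% of all windows. A match is a run of letters and not a shown binding site, and the absence of one concerns this window only. The windows below show the members with a match, with the matched letters in capitals, and that of Nqo1 as a responsive member without one. All run 5′ to 3′ on the strand of the gene.
Nfe2l2, chr2:75704614-75704913, minus strand, match at bases -240 to -232 from the start: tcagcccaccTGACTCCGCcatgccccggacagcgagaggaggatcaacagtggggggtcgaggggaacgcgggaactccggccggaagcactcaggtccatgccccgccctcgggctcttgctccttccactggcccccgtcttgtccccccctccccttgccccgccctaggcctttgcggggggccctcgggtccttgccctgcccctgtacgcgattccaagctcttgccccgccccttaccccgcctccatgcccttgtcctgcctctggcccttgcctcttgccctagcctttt
Gclm, chr3:122245307-122245606, plus strand, reverse match at -134 to -126: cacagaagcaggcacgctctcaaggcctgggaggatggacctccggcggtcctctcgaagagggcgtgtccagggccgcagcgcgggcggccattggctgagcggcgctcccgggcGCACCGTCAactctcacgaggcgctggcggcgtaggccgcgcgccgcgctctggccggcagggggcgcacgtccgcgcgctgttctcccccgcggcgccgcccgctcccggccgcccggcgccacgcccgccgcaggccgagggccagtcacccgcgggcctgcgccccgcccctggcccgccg
Txnrd1, chr10:82858956-82859255, plus strand, reverse match at -92 to -84: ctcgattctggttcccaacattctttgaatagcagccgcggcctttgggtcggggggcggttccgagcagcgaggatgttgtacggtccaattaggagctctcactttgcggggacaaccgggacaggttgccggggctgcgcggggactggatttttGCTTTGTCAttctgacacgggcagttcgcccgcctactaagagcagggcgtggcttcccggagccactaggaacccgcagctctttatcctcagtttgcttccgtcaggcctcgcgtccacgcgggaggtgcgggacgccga
Srxn1, chr2:152105274-152105573, plus strand, reverse match at 29 to 37: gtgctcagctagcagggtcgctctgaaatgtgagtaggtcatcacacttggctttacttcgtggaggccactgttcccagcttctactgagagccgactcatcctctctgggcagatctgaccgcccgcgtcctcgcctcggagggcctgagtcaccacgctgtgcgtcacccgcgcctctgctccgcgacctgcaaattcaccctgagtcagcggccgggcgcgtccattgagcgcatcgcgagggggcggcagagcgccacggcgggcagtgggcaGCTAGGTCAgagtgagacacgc
Nqo1, chr8:107403156-107403455, minus strand, no match: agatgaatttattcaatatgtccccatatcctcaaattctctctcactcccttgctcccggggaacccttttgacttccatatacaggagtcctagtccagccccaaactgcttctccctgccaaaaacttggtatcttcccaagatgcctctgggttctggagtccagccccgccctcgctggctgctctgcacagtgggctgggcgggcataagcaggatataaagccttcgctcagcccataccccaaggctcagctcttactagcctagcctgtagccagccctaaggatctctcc

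Levels are log2 signal as the authors deposited it, so a difference of 1 is a doubling of signal. Levels of different probe sets are not compared, though they are added up in the sums over marker lists. A background level of 3.62 was taken from 1394 receptor genes of smell and pheromone sensing, as the 95th percentile of their means in the groups. A gene was called different between groups at a limma adjusted p under 0.05 over all 22180 genes and an absolute log2 difference of at least 1. Fibroblast markers, endothelial markers and endocrine markers differed between the groups, and their counts stand with the comparisons. In these bulk samples, fewer cells of a type and less RNA per cell cannot be told apart. Among 13 measured acinar markers, 7 lay above background in tumor cells, against 13 in ADM, 13 in embryonic and 13 in adult cells, and the summed log2 signal of the list was 7.41 to 7.74 in tumor cells, 14.1 to 14.5 in ADM, 15.4 to 15.6 in embryonic and 15.9 to 15.95 in adult cells. The duct keratin Krt19 averaged 10.4 in tumor cells and 10.1 in ADM cultures, against 7.82 in embryonic and 6.92 in adult cells. The epithelial adhesion gene Epcam averaged 3.82 in tumor cells, close to background, and Cftr 3.49, below it. Among 10 measured ductal markers, 8 lay above background in tumor cells, 10 in ADM, 9 in embryonic and 9 in adult cells. Against adult cells, 5 were called higher and 3 lower in tumor cells, and 8 higher and none lower in ADM. The tumor array of replicate 1 stood apart from its group. On it 778 genes lay at least 1 above or at least 1 below both other tumor arrays, while this count was between 47 and 299 for the other 11 arrays, so the calls of the 10 genes that depend on it are also given without it.

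In ADM cultures, 6 of the 10 genes were called higher than in adult acinar cells, against 12.5% of all genes. Of these, 4 genes, Nqo1, Hmox1, Gclc and Gpx2, were called higher in ADM than in each of the other 3 groups. Of all genes, 1.19% met this rule for ADM. None of the 10 genes met the rule for tumor, embryonic or adult cells. Over all genes 2.11%, 2.45% and 1.69% did, shares too small for none of 10 to be a result about these genes. In ADM, the call of Gclc over tumor cells and that of Gpx2 over embryonic cells were each lost under some alternatives. Nfe2l2 and Txnrd1 stood high in both tumor cells and ADM cultures. Both of these groups were cultured and both acinar groups were not, so culture cannot be told apart from the tumor or ADM state. The same holds for every comparison of tumor or ADM with embryonic or adult cells. Slc7a11 was lowest in embryonic cells. Keap1 and Srxn1 were called in none of the 6 comparisons, like 15482 of all 22180 genes.

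**Figure D1:**
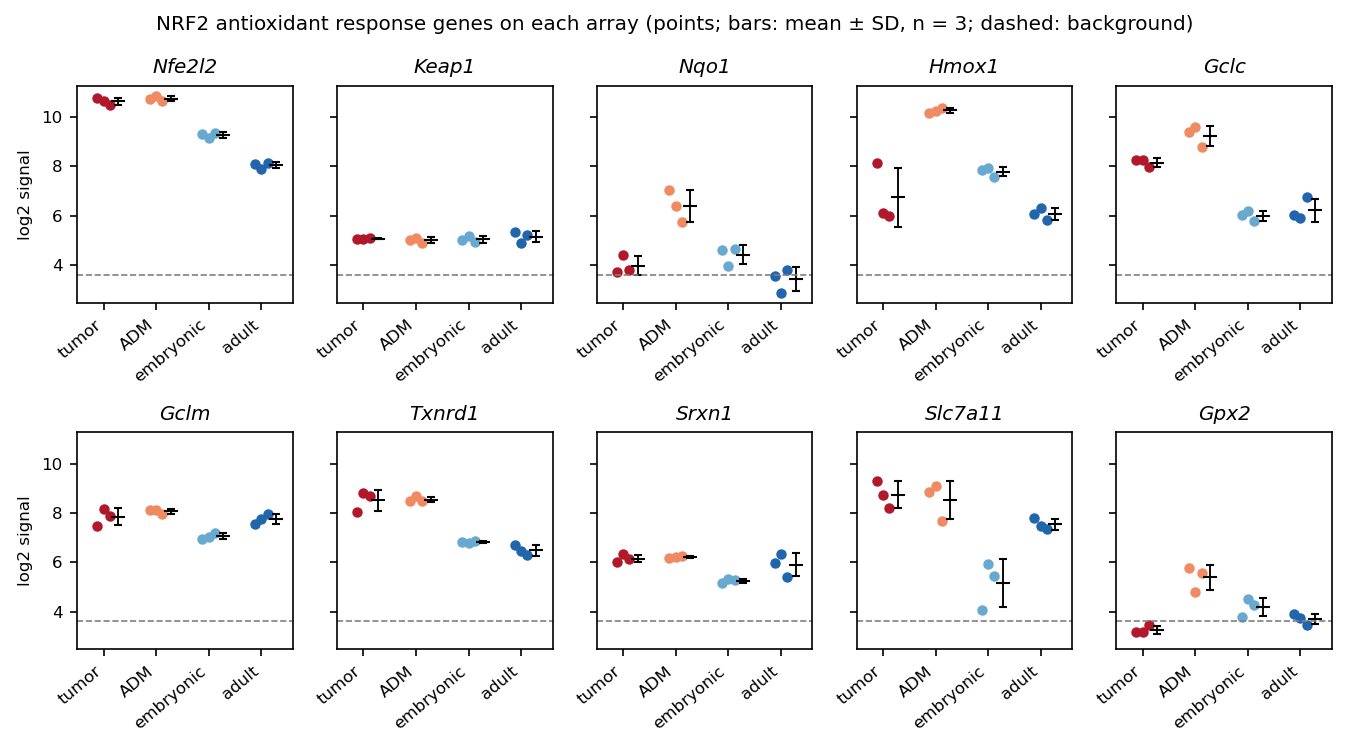
Log2 signal (y axis) of each of the 10 genes on each array (points) by group (x axis), with the mean ± SD of 3 arrays as a bar and the background level of 3.62 as a dashed line. Hmox1 on ADM arrays lies between 10.17 and 10.37, above all other arrays, and 1 tumor array (8.13) lies apart from the others (6.13 and 5.99).

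Nfe2l2, the transcription factor gene, measured 10.78, 10.67 and 10.50 on the tumor arrays and 10.72, 10.86 and 10.66 on the ADM arrays. It measured 9.32, 9.14 and 9.35 on the embryonic arrays and 8.12, 7.90 and 8.13 on the adult arrays. Tumor and ADM arrays overlapped and lay above every embryonic array, and every embryonic array lay above every adult array. The difference from adult cells was 2.60 ± 0.14 for tumor (SE, n = 3 per group, adjusted p = 1.25e-08), 2.70 ± 0.14 for ADM (adjusted p = 1.99e-08) and 1.22 ± 0.14 for embryonic cells (adjusted p = 3.25e-05). On the linear scale the ADM mean was 6.48 times the adult mean. Tumor minus ADM was -0.10, with a 95% interval from -0.40 to 0.21, so that a difference past the minimum of 1 was outside this interval. Tumor minus embryonic was 1.38 ± 0.14 (adjusted p = 7.02e-06), but 0.86 and no longer called when arrays were centred on housekeeping genes.

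Keap1, the inhibitor, measured 5.07, 5.05 and 5.12 on the tumor arrays and 5.04, 5.12 and 4.89 on the ADM arrays, against 5.01, 5.20 and 4.93 on the embryonic and 5.36, 4.91 and 5.21 on the adult arrays. The arrays of the 4 groups overlapped in every pair. Its group means spanned 0.14, and its 6 intervals lay between -0.47 and 0.39. A second, dimmer probe set of Keap1 averaged 4.15 in tumor, 4.63 in ADM, 4.27 in embryonic and 3.95 in adult cells, with ADM minus adult at 0.68 ± 0.21 (SE), whereas the first gave -0.14 ± 0.15. The probe sets disagreed in sign in all 6 comparisons. The second gave -0.48 ± 0.21 for tumor minus ADM and 0.36 ± 0.21 for ADM minus embryonic. Both stayed under the fold minimum throughout.

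Nqo1 encodes a quinone reductase and is a widely used reporter of NRF2 activity. It measured 7.04, 6.38 and 5.74 on the ADM arrays. On the other arrays it was low, at 3.74, 4.42 and 3.79 in tumor cells, 4.62, 3.99 and 4.67 in embryonic cells and 3.58, 2.89 and 3.82 in adult cells. Every ADM array lay above all other arrays, and the adult mean of 3.43 lay under background. In ADM the signal was at least 6.80-fold higher than in adult cells, where the adult level was taken as background (log2 difference 2.96 ± 0.33, adjusted p = 1.45e-05). Tumor minus ADM was -2.40 ± 0.33 (adjusted p = 0.000221), and tumor minus adult was 0.55 with an interval from -0.16 to 1.27. Embryonic minus adult was 1.00 ± 0.33 (adjusted p = 0.0384), just under the fold minimum (at least 1.75-fold against background). It was called under quantile normalization (1.03), without embryonic replicate 2 (1.22) and without adult replicate 3 (1.19).

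Hmox1 encodes the inducible heme oxygenase, which breaks heme down to biliverdin, iron and carbon monoxide. It measured 10.17, 10.26 and 10.37 on the ADM arrays, and ADM minus adult reached 4.20 ± 0.41 (adjusted p = 4.50e-06), an 18.3-fold difference and the greatest of all 60 differences over the 10 genes and 6 comparisons. It measured 7.87, 7.93 and 7.58 on the embryonic arrays, against 6.08, 6.31 and 5.82 on the adult arrays, without overlap. Embryonic minus adult was 1.72 ± 0.41 (adjusted p = 0.00733). The tumor arrays measured 8.13, 6.13 and 5.99, so that the array of replicate 1 lay above the embryonic and adult arrays and the other tumor arrays lay among the adult ones. With all tumor arrays, tumor minus ADM was -3.52 ± 0.41 (adjusted p = 5.58e-05) and tumor minus embryonic -1.04 ± 0.41, not called (adjusted p = 0.0844). Without tumor replicate 1, tumor minus ADM was -4.21 ± 0.18 (adjusted p = 1.38e-08), tumor minus embryonic was called at -1.73 ± 0.18 (adjusted p = 1.22e-05), and tumor minus adult moved to -0.01 ± 0.18, against 0.68 ± 0.41 with it.

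Macrophages use Hmox1 in recycling heme, so their markers were set beside it. Of 14 measured immune markers, 7 lay above background in tumor cells, 8 in ADM, 12 in embryonic and 11 in adult cells. Their summed log2 signal was 9.87 to 10.3 in tumor cells, 9.91 to 10.6 in ADM, 10.5 to 11.1 in embryonic and 8.88 to 8.92 in adult cells. Such a sum is set mostly by its brightest probe sets. In tumor cells Cd14 averaged 9.61 and Mrc1 6.42, while Ptprc (2.96), Adgre1 (3.00), Csf1r (3.39) and Lyz2 (3.62) lay at or under background. In ADM minus adult, 3 of the 14 were called higher and none lower. These were Cd14 at 3.75 ± 0.26 (adjusted p = 1.97e-07), Cd68 at 1.87 ± 0.23 (adjusted p = 3.32e-05) and Lyz2 at 1.41 ± 0.29 (adjusted p = 0.00219). Lyz2 averaged 9.66 in embryonic cells, 9.28 in ADM, 7.88 in adult and 3.62 in tumor cells. Cd14 averaged 9.61 in tumor cells, 8.11 in ADM, 4.48 in embryonic and 4.36 in adult cells. By mean, Lyz2 was thus highest in embryonic cells and Cd14 in tumor cells. The macrophage markers Csf1r and Adgre1 measured 3.88, 3.31 and 3.81 and 3.92, 3.44 and 3.43 on the ADM arrays, near background, while Cd163 stayed at or below 3.09 there. Others of the list lay above background on the ADM arrays, with C1qa at 5.28, 5.06 and 4.97 and C1qb at 6.10, 4.85 and 5.34. On the adult arrays C1qa measured 5.33, 5.61 and 4.55 and C1qb 5.36, 4.15 and 5.15. Cd68 measured 7.31, 6.44 and 6.39 in ADM, against 4.89, 4.77 and 4.86 in adult cells, and averaged 7.10 in embryonic and 5.79 in tumor cells. The part of these immune markers in the ADM level of Hmox1 was not tested. On the embryonic arrays Csf1r measured 6.51, 5.89 and 6.08, against 3.58, 4.11 and 4.60 on the adult arrays, and its part in the embryonic Hmox1 level was not tested. Fibroblast and stellate markers lay above background for 12 of 12 genes in ADM, embryonic and adult cells and for 4 in tumor cells. Their summed signal was 7.37 to 7.73 in tumor cells, 11.5 to 12.8 in ADM, 12.7 to 13.4 in embryonic and 9.99 to 10.03 in adult cells. Of these markers, 9 of 12 were called higher in ADM than in adult cells, and their part in the ADM levels of Nqo1, Hmox1, Gclc and Gpx2 was not tested.

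**Figure D2:**
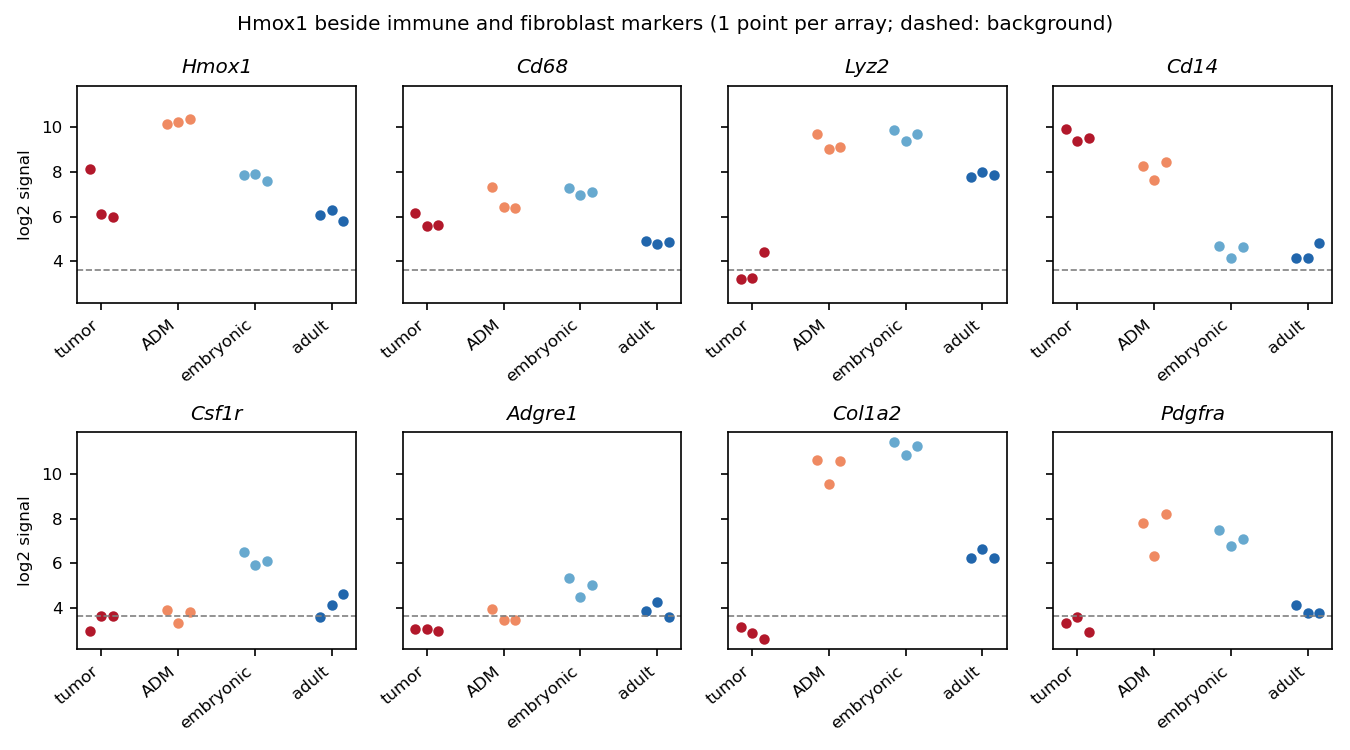
Log2 signal (y axis) of Hmox1, of the immune markers Cd68, Lyz2, Cd14, Csf1r and Adgre1 and of the fibroblast markers Col1a2 and Pdgfra on each array (points) by group (x axis), with background dashed. Hmox1 is highest in ADM cultures, where Cd68, Lyz2 and Cd14 lie above adult cells and Csf1r and Adgre1 lie near background. By mean, Cd68 and Lyz2 are highest in embryonic cells and Cd14 in tumor cells.

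Of the glutathione supply genes, Gclc was called in 5 comparisons, Slc7a11 in 3 and Gclm in 1. Slc7a11 encodes the cystine importer of system xc-, Gclc the catalytic and Gclm the modifier subunit of glutamate-cysteine ligase, the rate-limiting enzyme of glutathione synthesis. Slc7a11 measured 9.29, 8.73 and 8.20 on the tumor arrays, 8.85, 9.11 and 7.66 on the ADM arrays, 4.06, 5.93 and 5.46 on the embryonic arrays and 7.80, 7.47 and 7.34 on the adult arrays. Every embryonic array lay below every other array. Embryonic minus adult was -2.39 ± 0.46 (adjusted p = 0.00161), ADM minus embryonic 3.39 ± 0.46 (adjusted p = 0.000137) and tumor minus embryonic 3.59 ± 0.46 (adjusted p = 5.04e-05). Its second probe set gave -2.20 ± 0.53 (SE) for embryonic minus adult and 3.38 ± 0.53 for ADM minus embryonic. Tumor minus adult was 1.20 ± 0.46, just missing the threshold (adjusted p = 0.0540). It was called with the mean of both probe sets (adjusted p = 0.0439), with dim genes left out (adjusted p = 0.0423), with only the arrays of both groups (adjusted p = 0.0101) and without tumor replicate 3 (adjusted p = 0.0418), and its adjusted p was 0.172 without tumor replicate 1. ADM minus adult was 1.00 ± 0.46 (adjusted p = 0.104), and 1.44, called, without ADM replicate 3.

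Gclc measured 8.25, 8.27 and 7.96 on the tumor arrays and 9.38, 9.58 and 8.80 on the ADM arrays, against 6.02, 6.21 and 5.79 on the embryonic and 6.02, 5.92 and 6.77 on the adult arrays. ADM lay above tumor and tumor above both acinar groups, with no overlap at either step, while embryonic and adult arrays overlapped. ADM minus adult was 3.02 ± 0.25 (adjusted p = 8.98e-07) and tumor minus adult 1.92 ± 0.25 (adjusted p = 3.01e-05). Tumor minus ADM was called at -1.09 ± 0.25 (adjusted p = 0.00778), a call lost at -0.93 without ADM replicate 2 and at -0.99 without tumor replicate 3. The modifier subunit Gclm varied less. It measured 7.49, 8.17 and 7.87 on tumor arrays, 8.11, 8.14 and 7.95 on ADM arrays, 6.94, 7.03 and 7.19 on embryonic arrays and 7.57, 7.75 and 7.97 on adult arrays, so that the embryonic arrays lay below all others. Only ADM minus embryonic was called, at 1.01 ± 0.18 (adjusted p = 0.00131), and that call was lost at 0.94 after quantile normalization, 0.88 after cyclic loess and 0.77 after housekeeping centring. It was also lost without ADM replicate 1 (0.99), ADM replicate 2 (0.98) or embryonic replicate 1 (0.96). ADM minus adult was 0.30 for Gclm, with an interval from -0.09 to 0.69.

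Txnrd1, cytosolic thioredoxin reductase, uses NADPH to keep thioredoxin reduced. It measured 8.03, 8.80 and 8.69 on the tumor arrays and 8.48, 8.67 and 8.47 on the ADM arrays, against 6.84, 6.80 and 6.87 on the embryonic and 6.70, 6.47 and 6.28 on the adult arrays. Tumor and ADM arrays overlapped and lay above all acinar arrays. Tumor minus adult was 2.02 ± 0.19 (adjusted p = 2.20e-06), ADM minus adult 2.06 ± 0.19 (adjusted p = 3.10e-06) and tumor minus ADM -0.03, with an interval from -0.45 to 0.39. The same order was seen against embryonic cells, at 1.67 ± 0.19 for tumor (adjusted p = 2.21e-05) and 1.70 ± 0.19 for ADM (adjusted p = 3.31e-05). Srxn1, sulfiredoxin, repairs overoxidised peroxiredoxins. Its arrays measured 6.02, 6.32 and 6.13 in tumor cells, 6.19, 6.22 and 6.26 in ADM, 5.17, 5.31 and 5.30 in embryonic and 5.97, 6.34 and 5.40 in adult cells. Embryonic arrays lay below all others, but each of its differences stayed under 1, with tumor minus embryonic at 0.90 ± 0.20 (adjusted p = 0.00428) and ADM minus embryonic at 0.96 ± 0.20 (adjusted p = 0.00384). Embryonic minus adult was -0.64 ± 0.20 (adjusted p = 0.0283), and under quantile normalization it was called at -1.13.

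Gpx2 is a selenium-dependent glutathione peroxidase of gut-type epithelia. It measured 3.17, 3.18 and 3.46 on the tumor arrays, all under background. On the ADM arrays it measured 5.78, 4.80 and 5.59, against 3.80, 4.52 and 4.28 on the embryonic and 3.91, 3.74 and 3.48 on the adult arrays. All ADM arrays lay above all others. ADM minus adult was 1.68 ± 0.25 (adjusted p = 0.000159), and ADM minus embryonic 1.19 ± 0.25 (adjusted p = 0.00426), a call lost at 0.95 under housekeeping centring, at 0.99 without embryonic replicate 1 and, at just under 1, without ADM replicate 1. In tumor cells the signal was at least 3.41-fold lower than in ADM, with tumor taken at background (log2 difference -2.12 ± 0.25, adjusted p = 5.83e-05). Its adult mean of 3.71 was close to background, and tumor minus adult was -0.44 with an interval from -0.98 to 0.10. With tumor taken at background this was at least 1.06-fold. It was -1.13 and called under housekeeping centring, which shifts signal at background like any other.

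**Figure D3:**
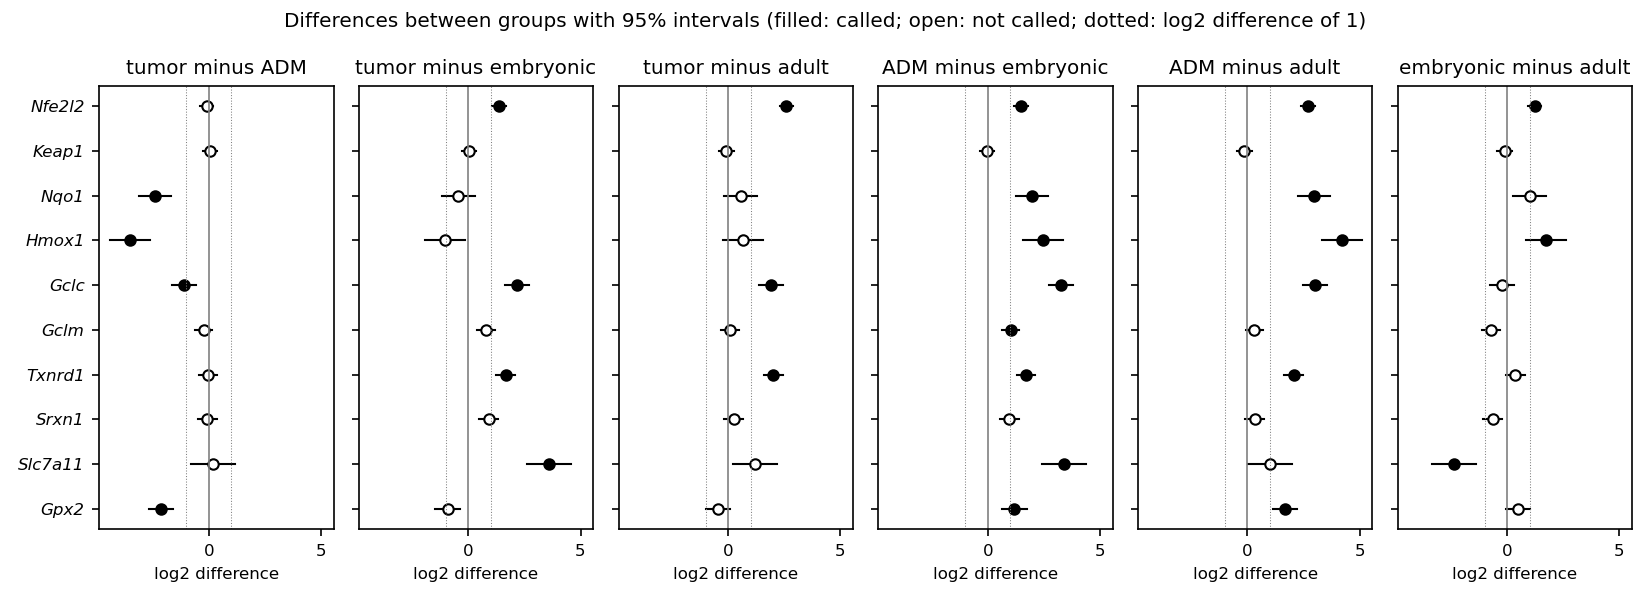
Log2 difference between groups (x axis) with its 95% interval from the limma fit for each of the 10 genes (y axis) in the 6 comparisons, n = 3 arrays per group; filled points are called and open points are not. ADM cultures have 6 filled points against adult and 8 against embryonic cells, and tumor cells have 4 filled points below 0 against ADM.

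The comparison of ADM cultures with adult acinar cells asks what changes when acinar cells pass into duct-like culture. Nfe2l2, Nqo1, Hmox1, Gclc, Txnrd1 and Gpx2 were higher, 6 of the 10 genes, and none was lower. Over all genes 16.7% were called in either direction, 12.5% higher and 4.22% lower. Arrays did not overlap for 6 of the 10 genes and for 49.8% of all genes. The median difference was 1.87 over the 10 genes and -0.11 over all genes. Fibroblast markers were called higher in ADM in 9 of 12 cases (median 3.09) and immune markers in 3 of 14, with none lower. Endocrine markers were called lower in ADM in 4 of 10 cases and none of the 10 endothelial differences passed 0.78 in size. The part of these markers in the differences was not tested. Time, gel and Tgf-alpha entered together and cannot be told apart. Other NRF2 target genes, from a list of 26 of which 20 were measured, were higher in 9 cases and lower in none (median 0.68). Gsta4, the glutathione transferase that clears lipid aldehydes, stood 4.95 ± 0.23 above adult cells (adjusted p = 5.83e-09). Akr1b8, an aldo-keto reductase, rose by 3.95, Abcc4, an efflux pump for conjugates, by 3.81, and Ugdh, which makes glucuronic acid donor, by 3.66. Akr1b8 and Abcc4 lay under background in adult cells, and against background they were at least 11.9-fold and 11.95-fold higher in ADM. Cross-hybridisation among glutathione transferases was not tested. Of 18 measured regulators and partners 4 rose (median 0.34), among them the NRF2 relative Nfe2l3 by 1.64 and the small MAF genes Maff by 1.37 and Mafg by 1.34 ± 0.15 (adjusted p = 1.43e-05). The repressor Bach1 stood at -0.55 ± 0.23 and the KEAP1-binding autophagy receptor Sqstm1 at 0.15 ± 0.30, neither called.

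In the same comparison, enzymes that supply NADPH rose in 3 and fell in 2 of 16 cases (median 0.04). Malic enzyme Me1 rose by 5.24 ± 0.25 (adjusted p = 7.71e-09) and the pentose phosphate enzyme Pgd by 2.37, while mitochondrial Idh2 fell by 1.50. Glutathione metabolism rose in 8 and fell in 7 of 28 cases (median 0.24), so that it had no common direction. Its transsulfuration enzymes Cth and Cbs fell by 3.09 and 2.98, the glutathione-degrading enzyme gene Chac1 fell by 2.85, and Gpx8 rose by 2.28. Slc3a2, the partner chain of the Slc7a11 protein, fell by 1.31 ± 0.15. The list of thioredoxin, peroxiredoxin and superoxide enzymes had 4 higher and 5 lower of 20, with the secretory-pathway peroxiredoxin Prdx4 lower by 3.03 ± 0.16 on the log2 scale (difference -3.03, adjusted p = 1.59e-08) and cytosolic Prdx2 higher by 1.58. Of 19 heme and iron genes 2 rose, the iron regulator Ireb2 by 1.08 and the transferrin receptor Tfrc by 1.07. No other gene of the 19 was called, against a difference of 4.20 for Hmox1.

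Set against adult acinar cells, tumor cells showed higher Nfe2l2, Gclc and Txnrd1, and the other 7 genes were not called. Over all genes 20.0% were called in either direction, 14% higher and 5.96% lower, too near 3 of 10 for the count to be a result about these genes. Arrays did not overlap for 5 of the 10 genes and for 43.7% of all genes. The median of the 10 differences was 0.62, or 0.52 with signal under background raised to it, against -0.09 over all genes. Adult arrays enter this comparison and the preceding one alike. Fibroblast markers were called lower in tumor cells in 5 of 12 cases, endothelial markers in 5 of 10, endocrine markers in 7 of 10 and immune markers in 1 of 14 (with 2 higher), and their part was not tested. Of the 20 other target genes 8 rose and 2 fell (median 0.24), led by Gsta4 at 5.56 ± 0.23 (adjusted p = 9.41e-10), Akr1b8 at 4.17, Ugdh at 4.09 and Abcc4 at 3.83. Against background in adult cells, Akr1b8 was at least 13.9-fold and Abcc4 at least 12.1-fold higher. Glutathione reductase Gsr rose by 2.69 ± 0.15, and thioredoxin Txn1 stood at 0.04 ± 0.14. Maff rose by 1.50 and Mafg by 1.48, and with Trim21 and Fbxw11 they were the 4 called regulators of 18 (median 0.01), Trim21 being under background in adult cells. Without tumor replicate 1, Trim21 (0.72) and Fbxw11 (0.96) were no longer called. In the NADPH list 4 of 16 rose and 1 fell (median 0.27), with Me1 at 5.36 ± 0.25 (adjusted p = 3.01e-09), Pgd at 2.10 and Aldh1l1 at -2.45. Glutathione metabolism rose in 7 and fell in 7 of 28 cases (median -0.02), with Cbs at -6.10, the microsomal transferase Mgst2 at 5.07 and Gstk1 at -4.11. Thioredoxin and related enzymes rose in 3 and fell in 6 of 20 cases (median -0.49). Among heme and iron genes 2 of 19 rose, Tfrc by 1.52 and the heme exporter Flvcr1 by 1.19.

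Set against adult cells, embryonic acinar cells showed higher Nfe2l2 and Hmox1 and lower Slc7a11, with 7 genes not called. Over all genes 12.6% were called in either direction, 10% higher and 2.61% lower. Arrays did not overlap for 7 of the 10 genes and for 42.9% of all genes. The median difference was 0.12 over the 10 genes and -0.09 over all genes. Under quantile normalization Nqo1 and Srxn1 were called too, which made 5. Endothelial markers were called higher in 10 of 10 cases, fibroblast markers in 12 of 12, immune markers in 9 of 14 and endocrine markers in 9 of 10, and their part in these differences was not tested. Of 20 other target genes, 4 rose and none fell (median 0.15), among them Gsta4 by 3.05 ± 0.23 and Ugdh by 2.40. Of the regulators 1 of 18 rose, Trim21 by 1.25. Me1 rose by 2.79 and Mthfd2, a mitochondrial folate enzyme, fell by 1.40, in a list with 2 higher and 2 lower of 16. In glutathione metabolism 7 of 28 rose and 5 fell, with Chac1 at -2.89, Gpx7 at 2.18 and Glrx at 2.11, and Slc3a2 fell by 1.02 ± 0.15. Thioredoxin and related enzymes rose in 2 and fell in 1 of 20 cases, with Prdx2 at 1.16 and Msrb1 at -1.56. Of the heme and iron genes the iron exporter Slc40a1 rose by 2.01 and biliverdin reductase Blvrb by 1.63, and these were the 2 called of 19. Both are also used by macrophages, whose markers moved with them, and that part was not tested. Erythroid markers were called higher in 2 of 6 cases, hepatic and intestinal markers in 6 of 10 and mesothelial markers in 5 of 5. Their part was not tested either.

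Tumor cells compared with ADM cultures had lower Nqo1, Hmox1, Gclc and Gpx2, 4 of the 10 genes, and none was higher. Over all genes 8.35% were called in either direction, 3.28% higher and 5.07% lower. Arrays did not overlap for those 4 genes, and for 31.6% of all genes. The median difference was -0.16 over the 10 genes and 0.06 over all genes. The same 4 were called without tumor replicate 1. Nfe2l2 stood at -0.10 and Txnrd1 at -0.03, neither called. Other target genes went both ways, with 2 higher and 4 lower of 20 (median 0.01). Carbonyl reductase Cbr3 fell by 1.82 ± 0.25 (adjusted p = 0.000201), Gsta3 by 1.77 and prostaglandin reductase Ptgr1 by 1.54, whereas Osgin1 rose by 1.76 and Gsr by 1.34 ± 0.15. Of 18 regulators Nfe2l3 fell by 1.84 and Palb2, under background in ADM, rose by 1.13 (at least 2.11-fold). Of 16 NADPH genes 5 rose and 2 fell, with Mthfd1l at 1.64 and Aldh1l1 at -1.68. Glutathione metabolism rose in 3 and fell in 6 of 28 cases, with Mgst2 at 4.36, Cbs at -3.12 and the secreted peroxidase Gpx3 at -2.83. Thioredoxin and related enzymes rose in 2 and fell in 2 of 20, and the differences of the 19 heme and iron genes lay between -0.71 and 0.65, under the fold minimum. Fibroblast markers were called lower in tumor cells in 11 of 12 cases, endothelial markers in 5 of 10, endocrine markers in 5 of 10 and immune markers in 2 of 14 (with 2 higher), and their part in the lower response genes was not tested.

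**Figure D4:**
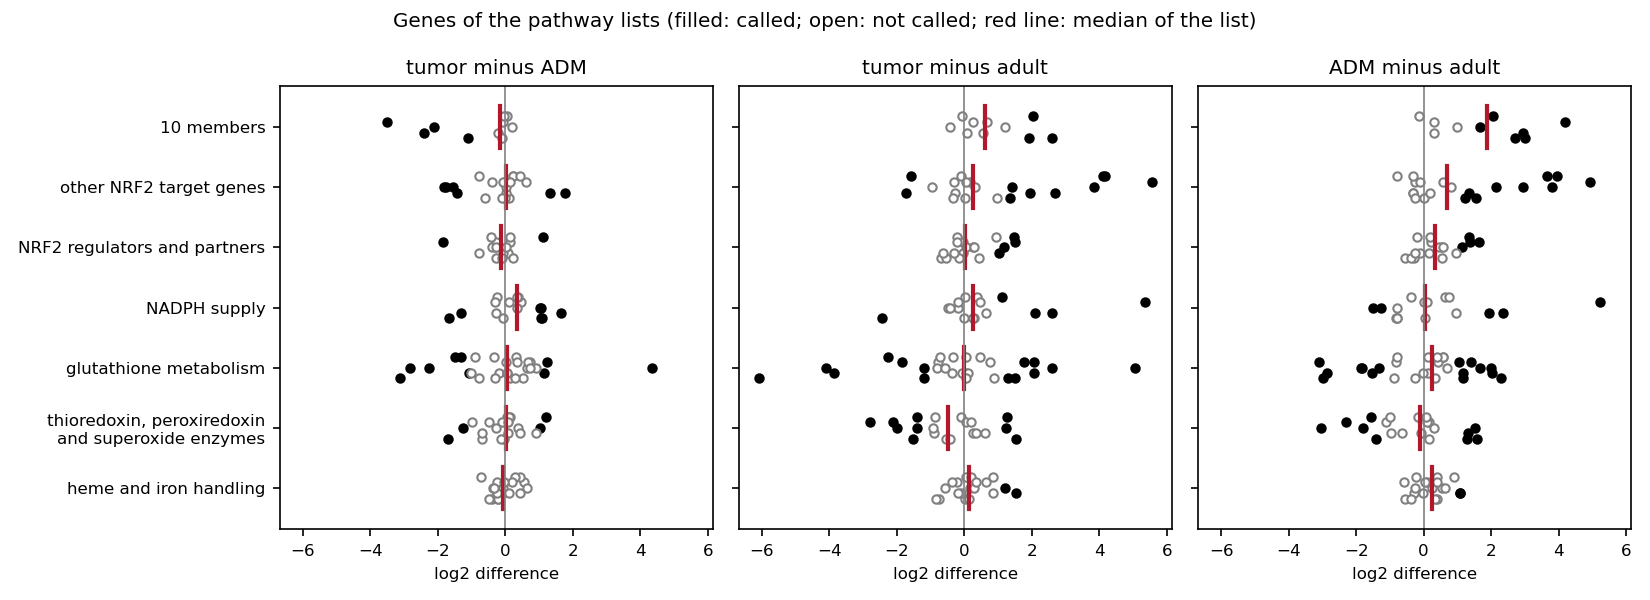
Log2 difference (x axis) of each measured gene in the 10 members and 6 pathway lists (y axis) for tumor minus ADM, tumor minus adult and ADM minus adult; filled points are called, open points are not, and the red line is the list's median. The medians of the 10 members are -0.16, 0.62 and 1.87, and the other lists have medians between -0.49 and 0.68.

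ADM cultures compared with embryonic acinar cells had 8 of the 10 genes called higher, all but Keap1 and Srxn1, and none lower. Over all genes 9.46% were called in either direction, 4.55% higher and 4.91% lower. Arrays did not overlap for 9 of the 10 genes and for 37.6% of all genes. The medians were 1.59 over the 10 genes and 0.00 over all genes. Gclc, at 3.25 ± 0.25 (adjusted p = 7.80e-07), and Slc7a11, at 3.39, differed most, followed by Hmox1 at 2.47 ± 0.41 (adjusted p = 0.000819), Nqo1 at 1.96 ± 0.33 (adjusted p = 0.000907), Txnrd1 at 1.70 and Nfe2l2 at 1.48 ± 0.14 (adjusted p = 6.94e-06). Endothelial markers were called lower in ADM in 9 of 10 cases, endocrine markers in 9 of 10, immune markers in 8 of 14 (with 1 higher) and fibroblast markers in 6 of 12 (with 1 higher), and their part was not tested. Among other target genes 8 of 20 were higher and none lower (median 0.53), with Akr1b8 at 3.88, Abcc4 at 3.06, Abcc1 at 1.94 and Gsta4 at 1.90. Akr1b8 lay under background in embryonic cells and was at least 11.9-fold higher in ADM. Nfe2l3 was the only regulator of 18 called, at 1.51. Me1 was higher by 2.45 and Idh2 lower by 1.84 on the log2 scale (difference -1.84) among 2 higher and 1 lower of 16 NADPH genes. Glutathione metabolism was higher in 2 and lower in 6 of 28 cases, and thioredoxin and related enzymes in 1 and 3 of 20, with Prdx4 at -2.14 and the stress-induced Sesn2 at 1.33. Of 19 heme and iron genes Blvrb, at -1.22, and Slc40a1, at -1.12, were called.

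Tumor cells compared with embryonic acinar cells had higher Nfe2l2, Gclc, Txnrd1 and Slc7a11, and without tumor replicate 1 a total of 5 genes were called, with Hmox1 lower. Fibroblast markers were called lower in tumor cells in 12 of 12 cases, endothelial markers in 10 of 10, endocrine markers in 9 of 10 and immune markers in 9 of 14 (with 1 higher), and their part was not tested. Over all genes 14.3% were called in either direction, 6.53% higher and 7.80% lower. Arrays did not overlap for 7 of the 10 genes and for 38.6% of all genes. The medians were 0.84 over the 10 genes and 0.07 over all genes. Gclc stood at 2.15 ± 0.25 (adjusted p = 1.90e-05). Gclm at 0.79 ± 0.18 and Srxn1 at 0.90 lay under the fold minimum without overlap between the arrays. Gpx2 stood at -0.93 ± 0.25 (adjusted p = 0.0138), at least 1.49-fold lower with tumor taken at background. It was called at -1.45 under housekeeping centring, at -1.03 without tumor replicate 3 and at -1.13 without embryonic replicate 1. Hmox1 was called lower under cyclic loess (-1.26), housekeeping centring (-1.56) and array weights (-1.42), as well as without tumor replicate 1. Other target genes were higher in 7 and lower in 3 of 20 cases, with Akr1b8 at 4.11, Abcc4 at 3.08 and Gsta3 at -2.45, and Gsr rose by 2.06 ± 0.15. Of the regulators Palb2 and Mafg rose, by 1.16 and 1.08. Palb2 lay under background in embryonic cells and was at least 2.11-fold higher, and Akr1b8 at least 13.9-fold. Me1 rose by 2.57 among 5 higher and 1 lower of 16 NADPH genes. Glutathione metabolism was higher in 3 and lower in 6 of 28 cases and thioredoxin and related enzymes in 1 and 6 of 20, with Sesn1 at -2.09 and Selenop at -1.94 (-2.68 without tumor replicate 1). Slc40a1 fell by 1.82 and Tfrc rose by 1.31.

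Genes with the most similar course were sought by the root mean square difference over the 12 arrays of values centred on each gene's mean, among 13023 other genes with a mean above background. Nearest to Nfe2l2 were Nrip1 (0.18), Cttn (0.18) and S100a11 (0.19), in log2 units. Nearest to Txnrd1 were Lrrfip1 (0.20), Lgals3 (0.22) and the keratin Krt8 (0.22). Nearest to Nqo1 were Adgrg2 (0.41), Eprn (0.45) and the laminin chain gene Lama3 (0.45), and to Hmox1 Lrp1 (0.53), Pdk4 (0.53) and Loxl3 (0.57). Gpx2 was nearest to the extracellular superoxide dismutase Sod3 (0.27), Arg1 (0.32) and Hectd2 (0.33), and Gclc to Chrnb1 (0.33), Prss22 (0.33) and Mpzl3 (0.37). For Slc7a11 the nearest genes, Baiap2l1 (0.69), Galnt3 (0.70) and Cgnl1 (0.71), were farther off. No other member was among the 3 nearest genes of any member, and the arrays share 4 groups, so that nearness describes the group means above all.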

How the data were processed

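Total RNA of 12 mouse samples, labelled with biotin by the standard Affymetrix protocol per the labels, was hybridised to arrays. The deposited values are log2 signal per probe set, as processed by the authors; the base was inferred from their range, 1.56 to 13.67, and software and normalization are not given in the sources used here. Of 41345 probe sets, 23521 carried 1 gene symbol, 1814 several and 16010 none, which gave 22180 genes. No symbol changed through the RefSeq gene table. A linear model (lmFit, contrasts.fit and eBayes of limma 3.58.1, R 4.3.3) was fitted to all 12 arrays with a mean per group and no replicate block (8 residual and 5.02 prior degrees of freedom). Adjustment was by Benjamini-Hochberg over 22180 genes per comparison, and tests were two-sided. Values after ± are SE of a difference, pooled over 4 groups, so variable arrays of another group can enlarge them. The fit was tested on simulated data. With 3 arrays a group, the number of arrays limits precision. The background level was chosen after its values were seen. The members, lists, tests and alternatives were chosen with earlier results of these data known.

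The 10 members are always named. Of each of 6 pathway lists, up to 4 called genes per comparison by size were named, besides Mafg, Bach1, Sqstm1, Gsr, Prdx1, Txn1, G6pdx, Fth1 and Slc3a2, which may always be named. In all, 223 of the 255 entries in 16 lists had a measured gene. The alternatives were quantile normalization, cyclic loess, centring on 12 housekeeping genes, the mean of a gene's probe sets, leaving out dim genes, array weights, eBayes with trend and robust, only the arrays of both groups, the replicate block, and leaving out each array. Promoter windows came from RefSeq (GRCm38.p6). Markers shown in the plots of single genes were chosen from the marker lists after their values were seen.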

Additional observations from a re-analysis of the deposited data

How the results depend on the processing

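Over 60 member differences and 15 alternatives each, no called difference changed sign. Of 28 called member differences, 24 were called under every alternative run, and of 32 not called, 25 were called under none. The exceptions stand beside their genes: Gclc, Gpx2, Gclm, Nfe2l2, Hmox1, Slc7a11, Nqo1 and Srxn1. The number of members called between embryonic and adult cells was 3, and 5 under quantile normalization. The number of genes called between tumor and adult cells was 4429, and 7957 under housekeeping centring. Centring on the 12 housekeeping genes moved the median over all genes to -0.78 for tumor minus adult, -0.52 for ADM minus adult, -0.26 for embryonic minus adult, -0.22 for tumor minus ADM, -0.45 for tumor minus embryonic and -0.24 for ADM minus embryonic. The share of calls that were higher was 70.2% for tumor minus adult and fell to 57.4% (quantile), 53.0% (loess) and 18.3% (housekeeping). It was 74.7% for ADM minus adult, against 59.5%, 59.4% and 38.0%, and 79.3% for embryonic minus adult, against 64.0%, 69.1% and 65.3%. Under housekeeping centring it was 21.4% against 39.3% for tumor minus ADM, 15.3% against 45.5% for tumor minus embryonic and 30.4% against 48.1% for ADM minus embryonic. The housekeeping genes themselves differed between the groups. Of the 12, 4 were called higher in tumor minus adult (median 0.80), 3 in ADM minus adult (0.79) and none in embryonic minus adult (0.42). The 75th percentile of signal was 5.04 to 5.10 on adult arrays, 5.39 to 5.44 on tumor, 5.45 to 5.51 on ADM and 5.43 to 5.51 on embryonic arrays. The cause of the changed shares was not tested. With the replicate number as a block, the genes called were 1834 for tumor minus ADM, 3173 for tumor minus embryonic, 4431 for tumor minus adult, 2093 for ADM minus embryonic, 3702 for ADM minus adult and 2799 for embryonic minus adult, and no member call changed. Arrays with the same number did not deviate together (correlation of deviations -0.06 to 0.17 over 18 pairs, median -0.01), so the numbers are not read as pairs. Nqo1 and Gpx2 lay at or near background in some groups, which limits the size of their differences.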
